A study of Homo sapiens with 12 samples.

Results

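The clustered histone genes are the genes for the linker histone H1 and the core histones H2A, H2B, H3 and H4 that sit together in 4 clusters, HIST1 on chromosome 6 and HIST2, HIST3 and HIST4 elsewhere. They were taken as every entry of the deposited gene table whose name begins with HIST1H, HIST2H, HIST3H or HIST4H, which gave 73 genes of 26475 entries. By the type in the name they were 6 H1, 18 H2A, 20 H2B, 14 H3 and 15 H4 genes. By the cluster in the name 56 were HIST1, 13 HIST2, 3 HIST3 and 1 HIST4. GENCODE v29 types HIST1H2APS1, HIST2H2BA and HIST2H2BC as pseudogenes, and they stay in all counts and sums. HIST2H2BA lies at chr1:121108210-121117257, away from the other HIST2 genes. RNA came from 12 libraries of A375, an established human melanoma cell line, with 3 libraries in each of 4 groups. Cells received OF1 together with XL413 (OF1+XL413), XL413 alone, OF1 alone, or the vehicle DMSO, for 24 h, with each inhibitor at 1 µM. XL413 inhibits CDC7, the kinase that fires replication origins, and OF1 inhibits the bromodomains of BRPF1, BRPF2 (the product of BRD1) and BRPF3, scaffolds of histone acetyltransferase complexes. All groups shared this 1 line and a serum-containing medium. The labels do not tie the 3 libraries of a group to separate cultures, so a p-value here speaks of library-to-library spread, which may be technical.

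Most clustered histone genes are replication-dependent: their mRNAs are made in S phase, when new chromatin needs packaging, and end in a conserved stem-loop bound by SLBP in place of a poly(A) tail. Some of these loci also produce transcripts that run past the stem-loop, or are spliced around it, and end in a poly(A) tail after an AATAAA signal, as is described for differentiated and non-dividing cells. The RNA here was selected on oligo-dT beads, so mRNAs that end at the stem-loop should be largely lost, and a read on a histone gene is not a measure of its total mRNA. In bulk RNA, a change in the share of cells that make a transcript and a change in the amount per cell cannot be told apart.

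Total counts ran from 30499559 to 36062138 per library. The melanocyte lineage factor SOX10 averaged 329 ± 16 CPM (counts scaled to a common library size) in OF1+XL413 cells, 352 ± 18.4 CPM in XL413 cells, 365 ± 18.7 CPM in OF1 cells and 344 ± 18.8 CPM in DMSO cells (SD, n = 3 each), while the pigment enzyme gene TYR had no count in any library, which allows up to 0.0984 CPM in the smallest. Of 10 melanoma genes 7 were tested, and the only call was MITF, the melanocyte lineage regulator, which fell in OF1+XL413 over DMSO (log2 -0.33 ± 0.05, SE, adjusted p = 0.00173). Of all genes tested, 10.7% were called in that comparison. The summed level of 10 skeletal muscle genes was 21.2 to 91.3 CPM in the OF1+XL413 libraries, against 121 to 260 CPM with XL413, 116 to 268 CPM with OF1 and 81.7 to 216 CPM with DMSO, and that of 6 fibroblast genes was 57.7 to 156 CPM with OF1+XL413, against 231 to 277 CPM with XL413, 251 to 281 CPM with OF1 and 211 to 267 CPM with DMSO. None of these 16 marker genes was at 0 in any library, and their part in the histone values of the OF1+XL413 libraries was not tested. The inhibitor targets CDC7, BRPF1, BRD1 and BRPF3 passed the test in none of the comparisons.

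The promoters of the 6 loci called in at least 1 comparison are shown, 4 of which (HIST1H2AC, HIST1H2BK, HIST1H2BD and HIST3H2A) rose both in XL413 over DMSO and in OF1+XL413 over OF1. They are the 250 bases before the RefSeq start in GRCh38.p14, read 5′ to 3′ on the gene's strand, and HIST2H4A and HIST2H4B share theirs exactly (300 of 300 bases in the full RefSeq window), so only the first is printed. Capitals mark every match on either strand to CCAAT (the motif of the factor NF-Y), to the octamer ATTTGCAT (the motif of POU2F1) or to TATAAA, and the runs TTTATAAA hold overlapping TATAAA matches on both strands. HIST1H2AC lies at chr6:26123922-26124171 (+), HIST1H2BK at chr6:27146856-27147105 (-), HIST1H2BD at chr6:26157872-26158121 (+), HIST1H2BJ at chr6:27132796-27133045 (-), HIST3H2A at chr1:228457874-228458123 (-) and HIST2H4A at chr1:149832407-149832656 (+).
HIST1H2AC: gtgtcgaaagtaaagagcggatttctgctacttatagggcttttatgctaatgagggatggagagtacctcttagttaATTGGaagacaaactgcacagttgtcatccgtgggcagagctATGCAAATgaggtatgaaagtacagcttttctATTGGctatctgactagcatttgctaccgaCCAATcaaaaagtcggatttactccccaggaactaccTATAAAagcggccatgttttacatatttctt
HIST1H2BK: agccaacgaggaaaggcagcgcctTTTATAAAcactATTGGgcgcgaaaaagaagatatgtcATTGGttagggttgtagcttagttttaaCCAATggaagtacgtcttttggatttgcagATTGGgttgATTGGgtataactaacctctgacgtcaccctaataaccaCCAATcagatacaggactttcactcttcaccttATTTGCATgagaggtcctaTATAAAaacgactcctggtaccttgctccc
HIST1H2BD: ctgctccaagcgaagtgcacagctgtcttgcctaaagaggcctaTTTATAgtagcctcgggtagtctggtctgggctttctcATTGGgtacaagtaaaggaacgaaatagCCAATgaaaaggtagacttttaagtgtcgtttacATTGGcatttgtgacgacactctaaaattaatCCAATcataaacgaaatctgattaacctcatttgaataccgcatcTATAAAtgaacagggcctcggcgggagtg
HIST1H2BJ: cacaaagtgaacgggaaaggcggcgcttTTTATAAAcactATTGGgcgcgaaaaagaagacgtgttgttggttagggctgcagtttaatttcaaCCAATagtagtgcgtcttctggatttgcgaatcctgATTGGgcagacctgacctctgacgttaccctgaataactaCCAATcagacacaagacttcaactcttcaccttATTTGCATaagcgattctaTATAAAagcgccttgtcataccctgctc
HIST3H2A: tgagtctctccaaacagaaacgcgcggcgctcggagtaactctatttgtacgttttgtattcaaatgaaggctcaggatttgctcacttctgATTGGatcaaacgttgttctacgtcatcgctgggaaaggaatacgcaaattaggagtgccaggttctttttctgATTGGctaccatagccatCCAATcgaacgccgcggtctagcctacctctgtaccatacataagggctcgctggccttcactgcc
HIST2H4A: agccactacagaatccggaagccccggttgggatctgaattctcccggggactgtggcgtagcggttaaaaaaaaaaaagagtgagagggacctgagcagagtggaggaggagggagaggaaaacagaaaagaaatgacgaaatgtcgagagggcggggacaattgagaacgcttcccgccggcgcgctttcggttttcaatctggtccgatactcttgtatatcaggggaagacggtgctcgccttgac

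Promoters matched 61 of the 73 genes, and motifs were counted over the full RefSeq window of 300 bases, not only the 250 printed. CCAAT stood in 83.6% of those 61, against 34.6% of all 35116 promoters in the table, the octamer in 39.3% against 1.77%, and TATAAA in 70.5% against 11.5%. Within the family the motifs followed histone type: the octamer was in 11 of 16 H2A and 13 of 16 H2B promoters and in none of the 6 H1, 11 H3 and 12 H4 promoters, and CCAAT was in every H1, H2A, H2B and H3 promoter but in 2 of 12 H4 promoters. The promoters of HIST2H4A and HIST2H4B held none of the 3 motifs in these windows. Of the 7 genes called in at least 1 comparison, 3 had the octamer, against 5 of the 16 with a promoter that had a mean count of 10 or more and no call.

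The 3′ elements are shown because poly(A) selection bears on which histone transcripts are read. In the GENCODE v29 transcripts the stem-loop (capitals in the first group) and the AATAAA signal near the end (capitals in the second) stand in these contexts.
HIST1H2AC stem-loop: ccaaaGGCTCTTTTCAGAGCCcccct
HIST3H2A stem-loop: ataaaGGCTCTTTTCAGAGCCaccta
HIST1H2BD stem-loop: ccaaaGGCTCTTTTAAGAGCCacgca
HIST2H4A stem-loop: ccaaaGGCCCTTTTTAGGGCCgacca
HIST1H2AC signal: catgaggtAATAAAaggtaatgcaaaggga
HIST1H2BD signal: ttataattAATAAAatctgcggagaattgt
HIST1H2BJ signal: aataaatgAATAAAgtaatattcctctgc
HIST2H4A signal: ggactctgAATAAAgagcagaatgattggc

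The HIST1H2AC transcript of 1668 bases carried its stem-loop 1128 bases before its end and its AATAAA 23 bases before its end, and the HIST2H4A transcript of 1547 bases carried its stem-loop 1167 bases before its end, while the signal shown for it is that of its 942-base transcript. The 789-base HIST1H2BD transcript held an AATAAA and no stem-loop, whereas its 496-base transcript held both. Over the family, 22 of 73 genes had a transcript with AATAAA within its last 45 bases. Among genes with a mean count of 10 or more, these were 5 of the 7 called in at least 1 comparison and 7 of the 19 called in none. The 5 include HIST2H4A and HIST2H4B, whose counts are 1 measurement. Entries that are a coding sequence alone cannot show the signal, among them the uncalled HIST1H1C (642 bases), HIST1H3D (411) and HIST2H2AC (390). These counts thus depend on how fully each gene is annotated. HIST1H2BK, a called gene, is also annotated in GENCODE v29 by its 381-base coding sequence alone, so its 3′ end is not shown. RefSeq gives this gene a span of 8566 bases, and its RefSeq transcripts were not searched for these elements. HIST3H2A, next in reads after HIST1H2BK, has 1 transcript there, of 895 bases, with a stem-loop 390 bases before its end and no AATAAA within its last 45 bases.

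Most of the 73 genes had few reads. No count fell on 7 of them in any library (HIST1H2AA, HIST1H2APS1, HIST1H2BA, HIST1H2BE, HIST1H3I, HIST1H4G and HIST1H4L), 26 had a mean count of 10 or more, and 33 passed the expression filter and were tested, including all 26. The least read of the 26 was HIST3H2BB (mean count 10.4), and the most read of those left out of the single-gene results were HIST1H2BH (9.33) and HIST2H3A and HIST2H3C (9.32 each). By type, 1 of 6 H1, 7 of 18 H2A, 10 of 20 H2B, 3 of 14 H3 and 5 of 15 H4 genes reached a mean count of 10. In CPM, not scaled for length, HIST1H2BK alone held 24.6% of the family's total, and HIST1H2BK, HIST3H2A, HIST1H1C and HIST1H2AC together held 58.2%.

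Some copies are too alike for their reads to be placed. The deposited counts of HIST2H2AA3 and HIST2H2AA4 were identical in every library, as were those of HIST2H3A and HIST2H3C and those of HIST2H4A and HIST2H4B, so each of these 3 pairs is 1 measurement split evenly. HIST1H4K was at 0 in OF1+XL413 replicate 2 and OF1 replicate 1 while its near copy HIST1H4J was read there, so their single values, plotted apart among the fold changes, are uncertain and the text gives their sum. HIST2H4A and HIST2H4B also overlap HIST2H3C and HIST2H3A on the opposite strand, and HIST1H2BD overlaps AL353759.1 on the opposite strand and LARP1P1 on its own strand. HIST1H3D overlaps AL031777.3 on its own strand, and reads of such same-strand neighbours cannot be separated by strand. The library kit marks strand, but whether counting used it is not given in the sources used here, so the reads of HIST2H4A, HIST2H4B and HIST1H2BD and their antisense neighbours may be mixed.

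**Figure D1:**
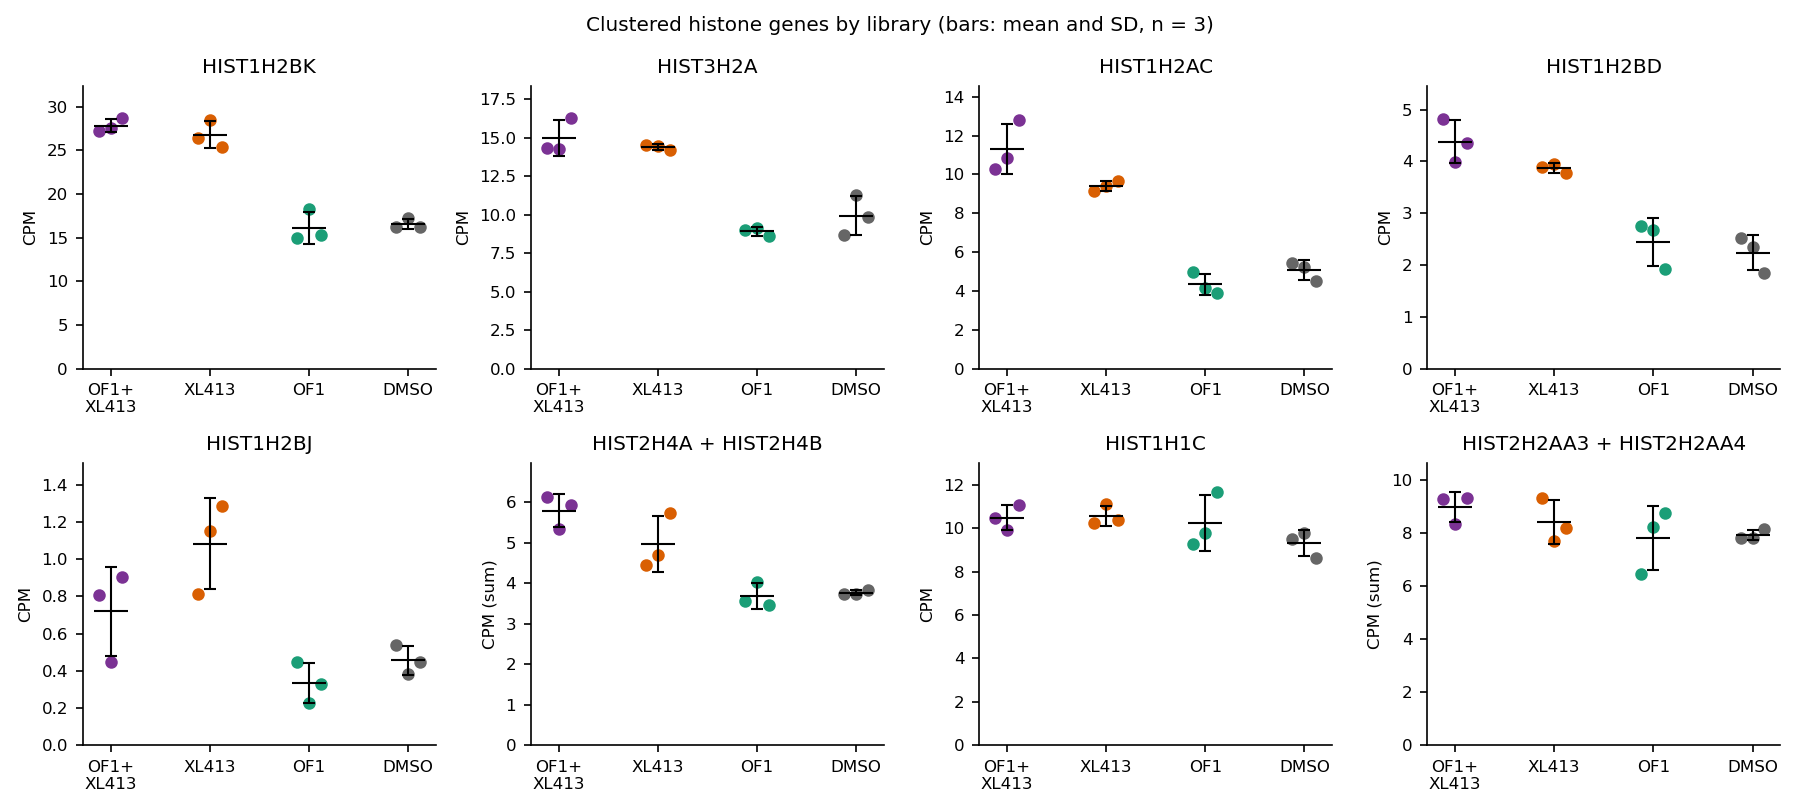
Normalized level (CPM, y axis from 0) of 8 histone loci in each library, by treatment. Points are libraries, and the bars give the mean and SD of 3. HIST1H2BK sat at 25.4 to 28.7 CPM in the 6 libraries with XL413 and at 14.9 to 18.3 CPM in the 6 without it, whereas the groups of HIST1H1C and of the HIST2H2AA3 and HIST2H2AA4 sum lay close together.

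XL413 against DMSO shows the changes with XL413 alone, and CDC7 activity itself is not measured by these RNA data. Of the 33 histone genes tested, 5 rose, all coding for H2A or H2B, and none fell: HIST1H2AC, HIST3H2A, HIST1H2BK, HIST1H2BD and HIST1H2BJ. Over all 15353 genes tested, 1.26% were called higher and 1.54% lower in this comparison. The median log2 change of the 33 was 0.23, against 0.00 over all genes tested, and 28 of the 33 estimates were positive. They include all 8 with an unadjusted p under 0.05, where 2851 of all 15353 genes tested had such a p. The 8 count both HIST2H4A and HIST2H4B, and the 33 and the 28 count both copies of every identical pair. No H1, H3 or H4 gene was called. Of all genes tested, 2.8% were called in either direction.

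HIST1H2AC (now H2AC6) codes for a replication-dependent H2A and lies at chr6:26124145-26139116 (+). It had 9.14, 9.39 and 9.66 CPM in the XL413 libraries, against 5.46, 5.25 and 4.51 CPM in the DMSO libraries. The log2 change was 0.89 ± 0.11 (SE, adjusted p = 0.000559), and every XL413 library lay above every DMSO library. HIST3H2A (now H2AC25), the H2A gene of the small chromosome 1 cluster at chr1:228456979-228457873 (-), had 14.5, 14.5 and 14.2 CPM with XL413, against 8.69, 11.3 and 9.86 CPM with DMSO. Its log2 change was smaller, 0.53 ± 0.08 (SE, adjusted p = 0.00458), and its groups did not overlap either.

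HIST1H2BK (now H2BC12), an H2B gene at chr6:27146418-27146798 (-) and the most read histone gene here, had 26.4, 28.5 and 25.4 CPM in the XL413 libraries, against 16.2, 17.2 and 16.3 CPM in the DMSO libraries. This is a log2 change of 0.69 ± 0.07 (SE, adjusted p = 0.000221). Libraries of 1 group lay close together, and the groups were well apart. HIST1H2BD (now H2BC5; chr6:26158146-26171349, +) codes for another H2B and had 3.89, 3.96 and 3.78 CPM with XL413, against 2.52, 2.35 and 1.85 CPM with DMSO. Its log2 change was 0.79 ± 0.15 (SE, adjusted p = 0.0159), with DMSO replicate 3 the lowest library. HIST1H2BJ (now H2BC11; chr6:27125897-27132750, -), also an H2B gene, was read 21.7 times per library on average and had 0.813, 1.15 and 1.29 CPM with XL413, against 0.54, 0.381 and 0.448 CPM with DMSO. Its log2 change of 1.24 ± 0.31 (SE, adjusted p = 0.0487) was the highest of the 5 and the least precise.

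HIST1H2AC, HIST1H2BK and HIST3H2A kept their calls under every alternative run. The call of HIST1H2BD was lost without DMSO replicate 2 (adjusted p = 0.0617), DMSO replicate 3 (0.0749), XL413 replicate 2 (0.0782) or XL413 replicate 3 (0.0574), and that of HIST1H2BJ without DMSO replicate 1 (0.102), 2 (0.186) or 3 (0.135), XL413 replicate 2 (0.16) or 3 (0.175), or OF1 replicate 2 (0.0595) or 3 (0.0611), with limma-voom (0.0549) and with a replicate block (0.0546). DESeq2 gave neither gene an adjusted p.

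Genes of the other types, and 1 H2A pair, gave estimates that did not pass. HIST2H4A and HIST2H4B, which code for the same H4 protein, summed to 4.44, 4.69 and 5.74 CPM with XL413, against 3.72, 3.73 and 3.82 CPM with DMSO, and as a sum had a log2 change of 0.40 ± 0.12 (SE, adjusted p = 0.078). All XL413 libraries lay above all DMSO libraries. HIST1H1C, the H1.2 linker histone gene and the most read H1, had 10.2, 11.1 and 10.4 CPM with XL413, against 9.5, 9.8 and 8.64 CPM with DMSO. Its log2 estimate was 0.18 ± 0.09 (SE, adjusted p = 0.282), and the 95% interval ran from -0.0047 to 0.37. Its XL413 libraries too lay above its DMSO libraries, by a narrow gap. HIST1H3D, the most read H3 gene, averaged 0.752 ± 0.32 CPM with XL413 and 0.467 ± 0.157 CPM with DMSO (SD, n = 3 each). The log2 estimate of 0.67 ± 0.35 (SE) had an adjusted p of 0.317. HIST2H2AA3 and HIST2H2AA4 are H2A genes of the HIST2 cluster that averaged 4.13 CPM each over all libraries. They summed to 8.4 ± 0.832 CPM with XL413 and 7.91 ± 0.19 CPM with DMSO (SD, n = 3 each). Their log2 estimate was 0.09 ± 0.11 (SE, adjusted p = 0.71). None of the 12 HIST2 genes tested was called, against 4 of 19 in HIST1 and 1 of 2 in HIST3, where 2.8% of all genes tested were called. The 12 include the 3 identical pairs and the pseudogenes HIST2H2BA and HIST2H2BC.

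**Figure D2:**
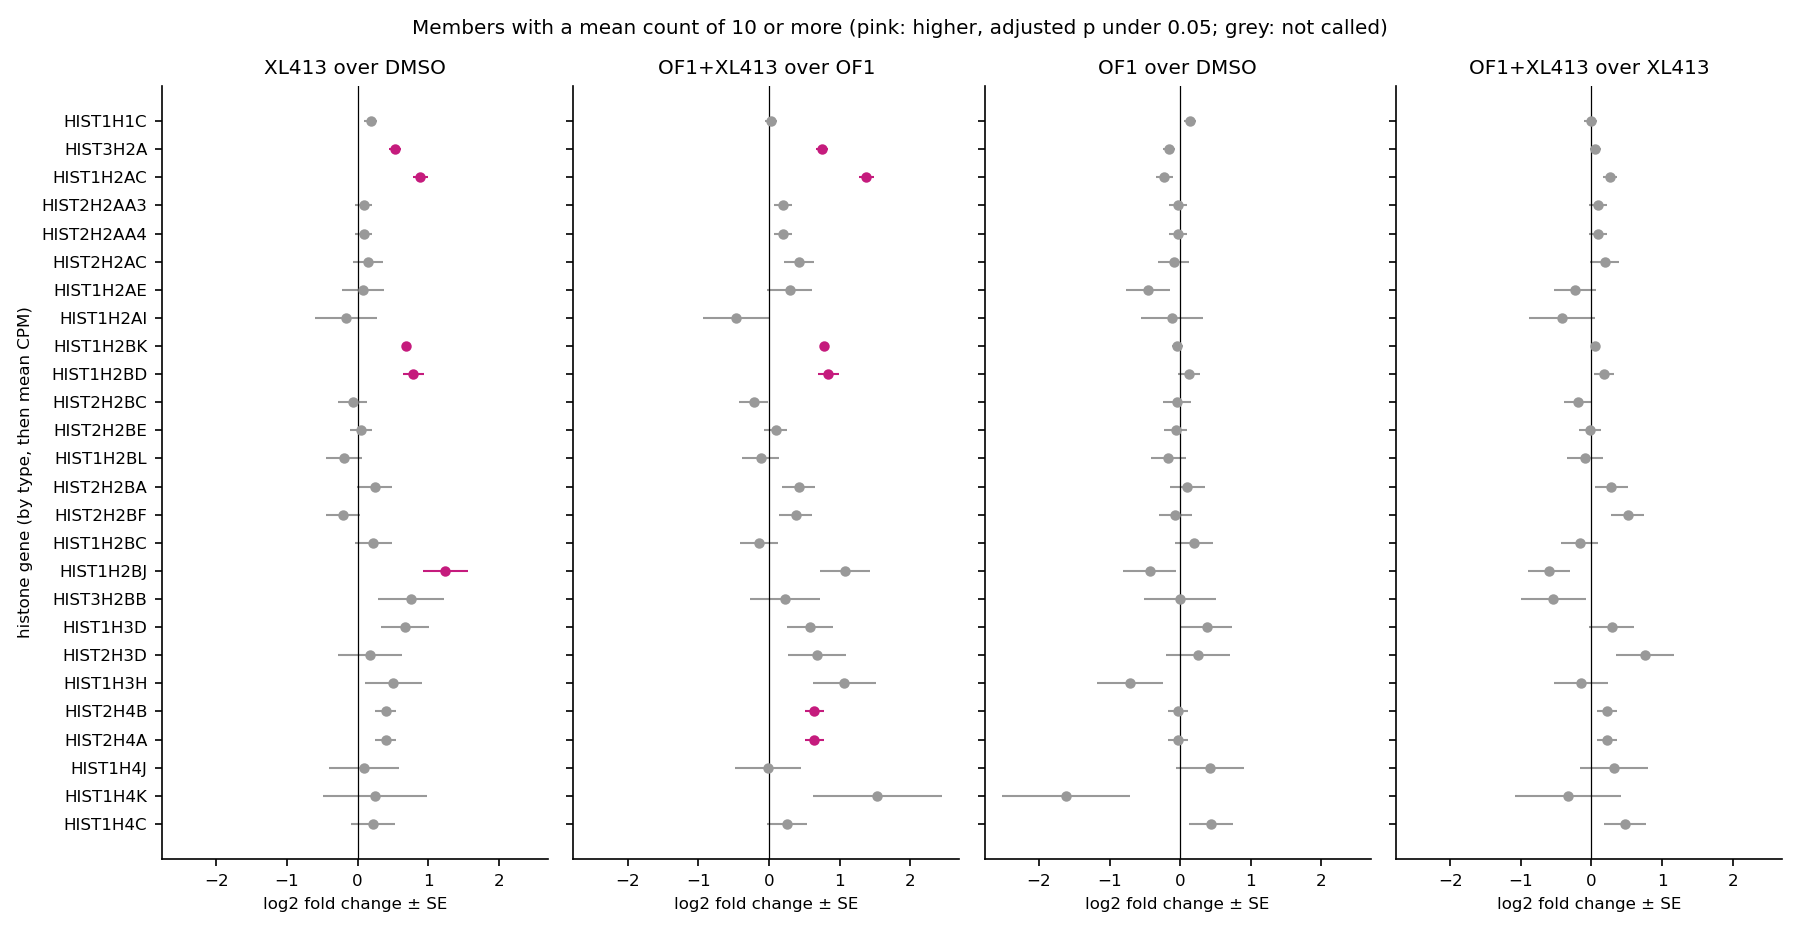
Log2 fold change with its standard error (x axis) for the 26 histone genes with a mean count of 10 or more, ordered by type and then by mean CPM, in 4 comparisons. Pink marks an adjusted p under 0.05: 5 genes lie to the right in XL413 over DMSO, 6 in OF1+XL413 over OF1, and none is marked in OF1 over DMSO or OF1+XL413 over XL413.

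OF1+XL413 against OF1 asks the same of XL413 in cells that also had the BRPF inhibitor, and shares no library with XL413 against DMSO. Of the 33 genes, 6 rose and none fell, where 2.79% of all genes tested were called higher, 2.71% lower and 5.5% in either direction. The median log2 change of the 33 was 0.30, against -0.00 over all genes. HIST1H2AC, HIST3H2A, HIST1H2BK and HIST1H2BD rose in both comparisons, which is 80% of the 5 called against DMSO and 66.7% of the 6 called against OF1. Over all genes tested, 90 were called higher in both, 46.6% of 193 and 21% of 429.

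HIST1H2AC had 10.3, 10.8 and 12.8 CPM in the OF1+XL413 libraries, against 4.95, 4.17 and 3.9 CPM in the OF1 libraries, a log2 change of 1.38 ± 0.11 (SE, adjusted p = 7.84e-06). It had the largest change among the called members, and OF1+XL413 replicate 3 was the highest library. HIST3H2A had 14.3, 14.3 and 16.3 CPM with OF1+XL413, against 9.01, 9.11 and 8.59 CPM with OF1, a log2 change of 0.75 ± 0.09 (SE, adjusted p = 0.000225). HIST1H2BK had 27.2, 27.5 and 28.7 CPM with OF1+XL413, against 14.9, 18.3 and 15.3 CPM with OF1, a log2 change of 0.79 ± 0.07 (SE, adjusted p = 2.5e-05). Neither gene's groups overlapped, and the OF1+XL413 values of HIST1H2BK were tight. HIST1H2BD had 4.81, 3.98 and 4.36 CPM with OF1+XL413, against 2.76, 2.67 and 1.92 CPM with OF1, a log2 change of 0.84 ± 0.15 (SE, adjusted p = 0.00712), and its groups were apart too.

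The H4 pair HIST2H4A and HIST2H4B summed to 6.12, 5.33 and 5.92 CPM with OF1+XL413, against 3.56, 4.04 and 3.45 CPM with OF1. As a sum the log2 change was 0.65 ± 0.12 (SE, adjusted p = 0.00669), and as separate entries each had 0.65 ± 0.14 (SE, adjusted p = 0.0194), so the 6 calls are 5 loci. The separate calls were lost without OF1 replicate 1 (adjusted p = 0.0627), OF1 replicate 3 (0.0609) or OF1+XL413 replicate 3 (0.0603), and with only the groups compared (0.0801). HIST1H2BJ had 0.807, 0.448 and 0.904 CPM with OF1+XL413, against 0.445, 0.228 and 0.33 CPM with OF1, a log2 change of 1.08 ± 0.35 that missed the threshold (SE, adjusted p = 0.0832). Its groups all but touched, at OF1+XL413 replicate 2 and OF1 replicate 1.

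HIST1H1C averaged 10.5 ± 0.586 CPM with OF1+XL413 and 10.3 ± 1.28 CPM with OF1 (SD, n = 3 each), and its log2 change of 0.03 ± 0.09 (SE, adjusted p = 0.869) had a 95% interval from -0.16 to 0.22. HIST1H3D averaged 0.91 ± 0.0132 CPM with OF1+XL413 and 0.607 ± 0.169 CPM with OF1 (SD, n = 3 each), a log2 change of 0.59 ± 0.33 (SE, adjusted p = 0.308), and its groups did not overlap. The HIST1H4J and HIST1H4K sum was 1.74, 1.77 and 2.49 CPM with OF1+XL413, against 0.8, 1.4 and 2.16 CPM with OF1 (log2 change 0.46 ± 0.27, SE, adjusted p = 0.336). In this comparison 10 of 10 skeletal muscle genes and 4 of 6 fibroblast genes fell, where 2.71% of all genes tested were called lower. In XL413 against DMSO, 0 of 10 and 0 of 6 were called, where 2.8% of all genes tested were. With OF1+XL413 replicate 1 as its group's only library, 3 of the histone genes were called, HIST1H2AC, HIST1H2BK and HIST3H2A, while HIST1H2BD (adjusted p = 0.0676) and HIST2H4A and HIST2H4B (0.17 each) were not.

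OF1 against DMSO and OF1+XL413 against XL413 show the BRPF inhibitor without and with XL413. With edgeR none of the 33 genes was called in either, where 1.15% of all genes tested (0.58% higher, 0.567% lower) and 3.41% (1.06% higher, 2.35% lower) were. DESeq2 and limma-voom called none as well. At an unadjusted p under 0.05 there were 0 and 3 of 33, against 2209 and 2584 of all 15353 genes tested. The 3 were HIST1H2AC and HIST2H2BF, which were higher, and HIST1H2AM, which was lower (log2 -1.11). HIST1H2BK had 16.1 ± 1.83 CPM with OF1, against 16.6 ± 0.569 CPM with DMSO (SD, n = 3 each), and the 95% interval of its log2 change ran from -0.19 to 0.12. HIST1H2AC had a log2 change of -0.22 ± 0.12 in OF1 over DMSO (SE, adjusted p = 0.41) and of 0.27 ± 0.10 in OF1+XL413 over XL413 (SE, adjusted p = 0.184), where every OF1+XL413 library lay above every XL413 library. Non-additivity, the log2 change of OF1+XL413 less those of both single inhibitors, was 0.49 ± 0.15 for HIST1H2AC (SE, unadjusted p = 0.0063, adjusted p = 0.24). With edgeR, DESeq2 and limma-voom no histone gene was called in that test, nor was any of all 15353 genes with edgeR (0%; 1566 at an unadjusted p under 0.05), and HIST1H2AC was the 1 gene of 33 with an unadjusted p under 0.05.

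OF1+XL413 against DMSO, which shares libraries with the comparisons above, had 6 of 33 genes higher and none lower, where 5.65% of all genes tested were called higher, 5.07% lower and 10.7% in either direction. The log2 changes were 1.15 ± 0.11 for HIST1H2AC, 0.97 ± 0.15 for HIST1H2BD, 0.75 ± 0.07 for HIST1H2BK, 0.59 ± 0.08 for HIST3H2A and, as a sum, 0.62 ± 0.12 for HIST2H4A and HIST2H4B (SE). Their adjusted p-values ran up to 0.00363 with the H4 pair summed, and as separate entries the pair had 0.0129, which became 0.0505 without DMSO replicate 2 and 0.0628 with OF1+XL413 replicate 1 alone. HIST1H2BJ, at 0.72 ± 0.24 CPM with OF1+XL413 and 0.456 ± 0.0794 CPM with DMSO (SD, n = 3 each), had overlapping groups and an adjusted p of 0.241.

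Summed over all 73 genes, the histone reads were 105, 101 and 113 CPM in OF1+XL413 cells, 99.8, 105 and 98.5 CPM in XL413 cells, 68.5, 75.3 and 74.5 CPM in OF1 cells and 74.0, 76.5 and 73.4 CPM in DMSO cells. All 6 libraries with XL413 lay above all 6 without it. The mean with XL413 was 1.35 times that with DMSO, and the mean with OF1+XL413 was 1.46 times that with OF1, while OF1 over DMSO was 0.975. These sums carry no test. The genes called in at least 1 comparison were selected by their change, so a split of the sums by call describes the gap and does not show that it is confined to them. The 7 called genes summed to 59.2 to 62.2 CPM with XL413, against 36.8 to 40.2 CPM with DMSO, and the other 66 genes summed to 38.5 to 42.4 CPM with XL413, against 36.2 to 36.9 CPM with DMSO.

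By type, the ratio of means for XL413 over DMSO was 1.43 for H2B, 1.39 for H2A, 1.27 for H3, 1.22 for H4 and 1.16 for H1. For OF1+XL413 over OF1 it was 1.49 for H2B, 1.62 for H2A, 1.5 for H3, 1.43 for H4 and 1.03 for H1. These sums rest on a few well-read genes: HIST1H2BK gave 26.8 of the 42.2 CPM of H2B with XL413. The median log2 change over the tested genes of a type weights each entry alike, so each copy of an identical pair counts. It gave another order in XL413 over DMSO: 0.47 for 2 H1 genes, 0.25 for 5 H4, 0.24 for 5 H3, 0.17 for 12 H2B and 0.15 for 9 H2A. The H1 median lies between HIST1H1C (0.18) and HIST1H1E (0.75 ± 0.50, SE), whose mean count was 9. The H3 median is the value of the HIST2H3A and HIST2H3C pair, and the H4 median is the uncertain single value of HIST1H4K. In OF1+XL413 over OF1 these medians were 0.14 for H1, 0.65 for H4, 0.59 for H3, 0.16 for H2B and 0.28 for H2A. Here the H4 median is the value of the HIST2H4A and HIST2H4B pair. The H2A, H2B and H4 sums of the libraries with XL413 never overlapped those without it, whereas the H3 sum of XL413 replicate 3, 2.88 CPM, lay below that of DMSO replicates 1 and 3, 2.91 and 3.05 CPM. By cluster, the XL413 over DMSO ratio was 1.45 for HIST1, 1.45 for HIST3 and 1.09 for HIST2, and the OF1+XL413 over OF1 ratio was 1.53, 1.67 and 1.21 in the same order. The single HIST4 gene, at 0.189 ± 0.0671 CPM with XL413 and 0.0892 ± 0.0298 CPM with DMSO (SD, n = 3 each), was too little read to be tested, and its ratios were 2.12 and 0.869.

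**Figure D3:**
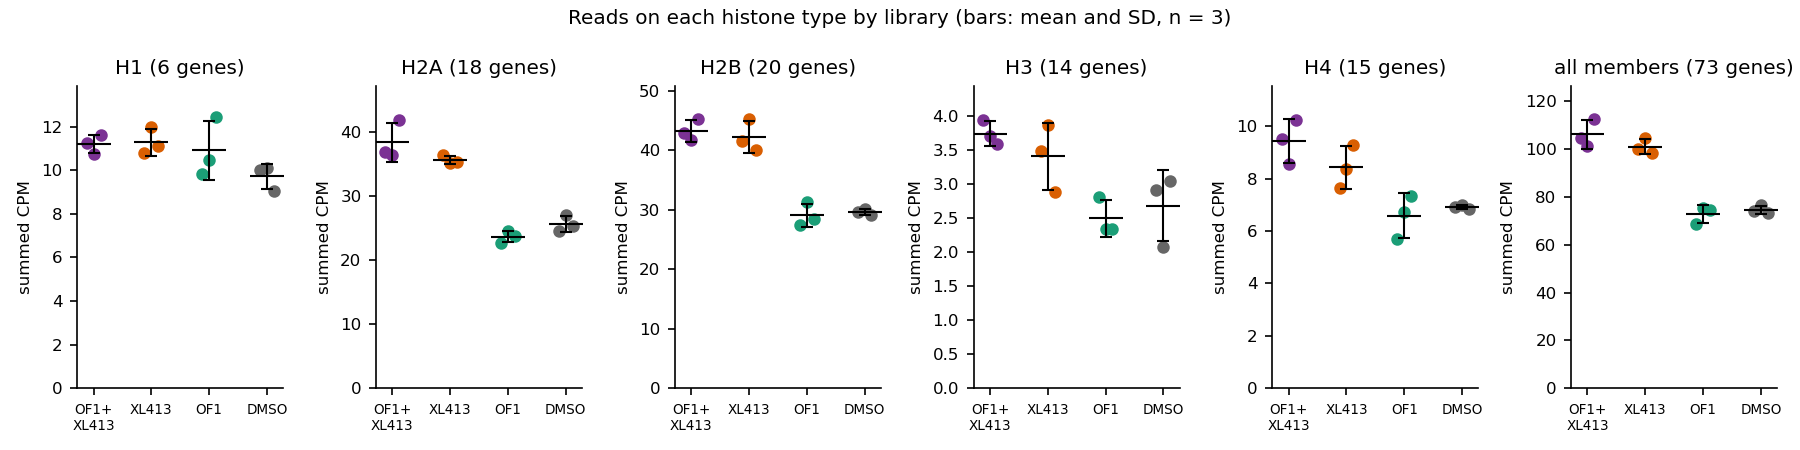
Summed CPM (y axis from 0) of the genes of each histone type and of all 73 genes, per library, with the mean and SD of 3. The H2A, H2B, H4 and total sums of the 6 libraries with XL413 lie above those of the 6 without it, and the H1 sums lie between 9.02 and 12.4 CPM in all 12.

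Many histone genes stand head to head with a partner on the other strand, and 13 such pairs had starts within 500 bases. The partners of the called genes had lower mean counts. Those tested were HIST1H2BC, HIST1H2AG and HIST3H2BB (mean counts 22, 8.7 and 10.4), and none was called. Of all genes tested, 2.8% were called in XL413 over DMSO and 5.5% in OF1+XL413 over OF1. So few tests at such counts cannot show a contrast within the pairs. HIST1H2AC and the H2B gene HIST1H2BC start 218 bases apart. HIST1H2BC had 0.697, 0.607 and 0.812 CPM with XL413, against 0.63, 0.616 and 0.568 CPM with DMSO, and its log2 changes were 0.23 in XL413 over DMSO and -0.14 in OF1+XL413 over OF1. HIST3H2BB, 233 bases from HIST3H2A, had 0.319, 0.767 and 0.252 CPM with XL413, against 0.33, 0.205 and 0.239 CPM with DMSO, with overlapping groups. Its log2 estimate, 0.76 ± 0.47 (SE, adjusted p = 0.414) in XL413 over DMSO, was above that of HIST3H2A but not called, and XL413 replicate 2 alone was high; it was 0.23 in OF1+XL413 over OF1. HIST1H2AG, 291 bases from HIST1H2BJ, had a log2 change of 0.15 in XL413 over DMSO, and HIST1H2AH, 330 bases from HIST1H2BK, was read 3.5 times per library on average and was not tested.

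**Figure D4:**
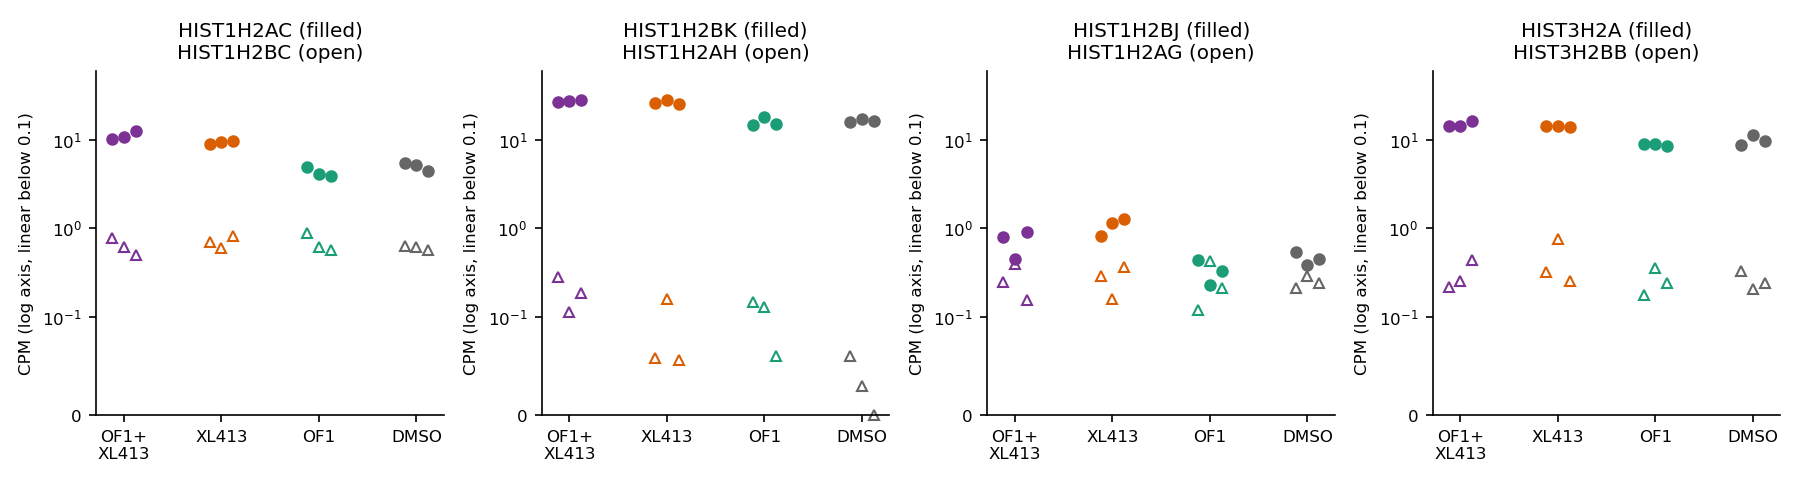
CPM per library (y axis, logarithmic and linear below 0.1) of 4 called histone genes (filled circles) and of the gene that starts head to head with each (open triangles), by treatment. HIST1H2AC, HIST1H2BK and HIST3H2A lie well above their partners in every library, and HIST1H2BJ overlaps HIST1H2AG in the OF1 libraries.

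The histone variant genes outside the clusters, whose mRNAs are mostly polyadenylated, had medians nearer 0. In XL413 over DMSO 1 of 11 rose and 1 fell. Of the 11 tested, CENPA, the centromeric H3 variant, rose 1.27-fold (30.2 ± 3.16 CPM with XL413 and 23.7 ± 1.06 CPM with DMSO, SD, n = 3 each; log2 0.35 ± 0.07, SE, adjusted p = 0.0224). H1F0, the H1 variant of resting cells, fell (313 ± 2.85 CPM with XL413 and 372 ± 5.31 CPM with DMSO; log2 -0.25 ± 0.03, SE, adjusted p = 0.00196). In OF1+XL413 over OF1, H1F0 (log2 -0.14 ± 0.03, SE) and H1FX (-0.32 ± 0.08, SE) fell and none rose. Elsewhere H2AFY fell in OF1+XL413 over DMSO (-0.12 ± 0.03, SE) and H1F0 rose in OF1+XL413 over XL413 (0.18 ± 0.03, SE). The replacement variant genes H2AFZ and H3F3B, at 672 ± 19.2 and 819 ± 22.5 CPM with XL413 and 679 ± 16.2 and 894 ± 12.2 CPM with DMSO (SD, n = 3 each), were not called. The median log2 change of the 11 was 0.05 in XL413 over DMSO and -0.04 in OF1+XL413 over OF1. The share of the 11 called in either direction was 18.2% in each of these, against 2.8% and 5.5% of all genes tested. In OF1+XL413 over DMSO and OF1+XL413 over XL413 it was 9.09% each, against 10.7% and 3.41%.

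Genes of histone mRNA synthesis, 3′ processing and decay were mostly uncalled. The share called was 4% in XL413 over DMSO, 4% in OF1+XL413 over OF1 and 12% in OF1+XL413 over DMSO. Over all genes tested these shares were 2.8%, 5.5% and 10.7%. In OF1 over DMSO it was 4%, against 1.15% of all genes tested. Of 25 tested, 1 fell and none rose in XL413 over DMSO (the helicase gene DHX9, log2 -0.12 ± 0.03, SE), and 1 fell in OF1+XL413 over OF1 (MIF4GD, whose product binds SLBP, log2 -0.25 ± 0.06, SE). SRRT fell in OF1 over DMSO (-0.15 ± 0.03, SE) and, with the decay helicase gene UPF1 (-0.16 ± 0.03, SE), in OF1+XL413 over DMSO (-0.19 ± 0.03, SE), where the 3′ processing gene FIP1L1 rose (0.12 ± 0.04, SE). SLBP, the stem-loop binding protein, had 123 ± 7.34 CPM with XL413 and 110 ± 2.8 CPM with DMSO (SD, n = 3 each), a log2 change of 0.16 ± 0.05 that did not pass (SE, adjusted p = 0.0797), and one of -0.05 ± 0.05 in OF1+XL413 over OF1 (SE, adjusted p = 0.564). NPAT, the coactivator of histone gene transcription at the histone locus body, was not called in any comparison.

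Among 22 S phase genes, 3 rose and 1 fell in XL413 over DMSO: the replicative helicase subunit gene MCM3 (log2 0.29 ± 0.03, SE), CDCA7 (0.29 ± 0.04, SE) and the CDT1 ligase gene DTL (0.17 ± 0.04, SE) were higher, and the ribonucleotide reductase gene RRM2 (-0.11 ± 0.03, SE) was lower. In OF1+XL413 over OF1, 9 rose, with CDCA7 (0.43 ± 0.04, SE), MCM3 (0.36 ± 0.03, SE) and DTL (0.27 ± 0.04, SE) in front, and cyclin gene CCNE2 fell (-0.29 ± 0.05, SE). In OF1+XL413 over DMSO 5 rose, led by DTL (0.34 ± 0.04, SE), CDCA7 (0.34 ± 0.04, SE) and MCM3 (0.31 ± 0.03, SE), and CCNE2 fell (-0.21 ± 0.05, SE). MCM2 fell in OF1 over DMSO (-0.14 ± 0.03, SE), and in OF1+XL413 over XL413 TYMS fell (-0.20 ± 0.04, SE) and DTL rose (0.17 ± 0.04, SE). The median log2 change of the 22 was 0.06 in XL413 over DMSO and 0.12 in OF1+XL413 over OF1. The share of the 22 called in either direction was 18.2% in XL413 over DMSO, 45.5% in OF1+XL413 over OF1 and 27.3% in OF1+XL413 over DMSO. Over all genes tested it was 2.8%, 5.5% and 10.7%. In OF1 over DMSO it was 4.55% against 1.15%, and in OF1+XL413 over XL413 9.09% against 3.41%. The part of the S phase genes in the histone values was not tested.

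Other RNAs that lack a poly(A) tail are read here to the extent that selection leaves them. Their summed level over 21 genes was 260, 330 and 272 CPM with OF1+XL413, 175, 165 and 190 CPM with XL413, 294, 251 and 225 CPM with OF1 and 211, 215 and 183 CPM with DMSO. Most of this sum came from RN7SL1 and RN7SL2, the signal recognition particle RNAs. They averaged 102 and 175 CPM with OF1+XL413 and 65.6 and 128 CPM with DMSO. Of the 9 tested, none was called in XL413 over DMSO or in OF1+XL413 over OF1, where 2.8% and 5.5% of all genes tested were. RN7SL1 and RN7SL2 rose in OF1+XL413 over XL413 (log2 0.74 ± 0.11 and 0.72 ± 0.10, SE), where no histone gene was called. Both also rose in OF1+XL413 over DMSO (0.64 ± 0.10 and 0.45 ± 0.10, SE), where 6 histone genes were called. Of all genes tested, 3.41% were called in OF1+XL413 over XL413 and 10.7% in OF1+XL413 over DMSO. The median log2 change of the 9 was -0.095 in XL413 over DMSO, 0.25 in OF1+XL413 over OF1 and 0.27 in OF1+XL413 over DMSO. In the same order, 3, 8 and 7 of the 9 estimates were positive. The part of these RNAs in the histone values was not tested.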

How the data were processed

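RNA was purified on oligo-dT beads and made into dUTP strand-marked libraries, per the labels' protocols. The authors deposited 1 table of expected counts per gene, made with Bowtie2 2.1.0 and RSEM 1.2.15 on hg38, per the submitters' processing notes. What gene models and strand setting were used, and how long the reads were, is not given in the sources used here. Rounding to whole numbers was needed for 10.6% of the deposited expected counts. RSEM shares reads among near-identical genes, so paralog levels are uncertain.

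edgeR 4.0.16 in R 4.3.3 kept 15353 genes (filterByExpr) and fitted a quasi-likelihood model with TMM factors to all 12 libraries. A call is a Benjamini-Hochberg adjusted p under 0.05 over all genes tested. The SE was taken as |log2 fold change| over the root of the F statistic. CPM uses TMM library sizes. DESeq2 1.42.0 and limma 3.58.1 (voom) were alternatives, and the test was checked on simulated data. Members, lists and the sum of near-identical copies were chosen with earlier results of these data known. Genes named are the members called in any comparison, the most read member of each type, and up to 3 called genes per companion list and direction, except that the muscle and fibroblast markers are given by their sums. Others were named after their values were seen: the partners in head-to-head pairs, the near-identical copies, H2AFZ, H3F3B, SLBP, NPAT, SOX10 and TYR. Symbols were matched to RefSeq (GRCh38.p14) and GENCODE v29 names, and gene positions are from GENCODE v29. Counting floors (3 counts) cover counting error only. Depth ran from 30499559 to 36062138 counts. Libraries with the same replicate number had deviations that correlated between -0.16 and 0.20, and those with different numbers between -0.20 and 0.18. As deviations were taken within groups of 3, this shows no clear pairing by number and cannot exclude it.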

Additional observations from a re-analysis of the deposited data

How the results depend on the processing

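HIST1H2AC, HIST1H2BK and HIST3H2A kept their calls against the group without XL413 under every alternative run. In XL413 over DMSO the 5 calls became 3 with DESeq2, the 3 genes just named (HIST1H2BD and HIST1H2BJ got no adjusted p), and 3 to 5 when leaving out 1 library. In OF1+XL413 over OF1 the 6 calls became 3 with OF1+XL413 replicate 1 alone, with that library assumed to vary like the other groups, and 4 to 6 when leaving out 1 library, and in OF1+XL413 over DMSO 4 to 7. With a replicate block there were 4, 6 and 6 calls in these comparisons, and the check of numbers did not support pairing. The cause of these losses was not tested, beyond the fewer libraries. OF1 over DMSO, OF1+XL413 over XL413 and non-additivity kept 0 calls throughout.

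Signs changed for 18 estimates, none called in either fit. When leaving out 1 library, non-additivity ran from -0.10 to 0.17 for HIST1H2BD, -0.30 to 0.30 for HIST1H3D and -0.37 to 0.10 for HIST1H2BJ (0.0097 with OF1+XL413 replicate 1 alone). HIST1H1C ran from -0.058 to 0.028 in OF1+XL413 over XL413 and from -0.037 to 0.14 in OF1+XL413 over OF1, and HIST3H2A from -0.014 to 0.089 in OF1+XL413 over XL413 (-0.0059 with replicate 1 alone). In OF1 over DMSO, HIST1H2BK ran from -0.14 to 0.013, and HIST2H4A and HIST2H4B each from -0.1 to 0.0072. The summed level over all members gave an XL413 over DMSO ratio of 1.35 to 1.36 under the other scalings. Mean counts near 10 limit what can be called among the less read genes.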
